A study of Homo sapiens with 8 samples.

Results

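The genes described here make up the ATF4 stress response and the amino acid supply that it serves. They are 38 of the 58735 genes in a table of RNA-seq read counts, and they were chosen by name for their known roles in the integrated stress response, in serine and asparagine synthesis, in amino acid transport and in the charging of tRNA. The study compared cells labelled A549, a human lung adenocarcinoma line, that carried an empty lentiviral vector (EV group, 4 libraries) with the same line overexpressing Flag-tagged KRT19 from a lentivirus (KRT19 group, 4 libraries). Keratin 19, the product of KRT19, is a keratin of simple epithelia. Per the study's methods, cells of both groups were transduced and then selected with puromycin, so the controls carry a vector and the selection as well. Both groups grew in RPMI-1640 medium with fetal bovine serum and glutamine, which supplies amino acids, and no stress treatment is named in the labels of these libraries. The labels number the replicates but do not say whether they came from separate cultures, so p-values measure only the spread between these libraries, which may be technical.

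The KRT19 transcript followed the labels, with 1 to 5 counts in the EV libraries and 4353 to 5147 in the KRT19 libraries. The name of the cell line was not borne out by its markers. CDKN2A (1328 to 1824 counts) and MTAP (653 to 870 counts), which the A549 line is known to lack by deletion, were counted in all 8 libraries. Among the epithelial genes, EPCAM and CDH1 had at most 3 counts in a library, KRT7 had 34 to 71 and CLDN4 123 to 183. Among genes that A549 cells are known to express strongly, 6 (AKR1B10, AKR1C1, AKR1C2, AKR1C3, ALDH1A1 and ALDH3A1) had at most 47 counts in a library and 3 (NQO1, GCLM and TXNRD1) at least 689. The epithelial keratins KRT8 and KRT18 were counted at 2988 or more in each library. The extraction text in the labels names retina. Of the retinal genes, SAG and RCVRN had 0 counts in every library, CRX, GNAT1 and RPE65 at most 4 in a library, PDE6A 1 to 6 and NRL 9 to 24. The cells are therefore called by their groups below, EV and KRT19. Library totals ran from 14073065 to 17054364 counts. The library KRT19 replicate 3 stood apart from the rest: it was the highest or the lowest of the 8 for 44.8% of the 14621 genes tested, and for 54.1% of the members.

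ATF4 is a basic leucine zipper transcription factor. Kinases that sense unfolded proteins, missing amino acids, double-stranded RNA or lack of haem phosphorylate the translation factor eIF2, which slows protein synthesis in general and at the same time favours translation of the ATF4 messenger RNA. ATF4 then pairs with C/EBP proteins and raises the genes that make, import and activate amino acids, and under lasting stress also DDIT3 (CHOP), TRIB3 and CHAC1. Because the first steps act on translation and on protein phosphorylation, RNA counts show the ATF4 transcript and its target transcripts but neither eIF2 phosphorylation nor ATF4 protein.

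The composite element that ATF4 binds together with C/EBP partners has the core TGATGNAA, and the classical cAMP response element reads TGACGTCA. RefSeq promoters (GRCh38.p14, 250 bases before to 50 bases after each start) were found for 32 of the 38 members, and both strands were searched. TGATGNAA occurred in the promoters of 14 of these 32 members (43.8%), against 4.46% of the 27305 genes with a promoter in the table and 3.62% of all 35116 windows of that length. TGACGTCA occurred in 1 of the 32 members (3.13%), PPP1R15A, against 2.25% of all genes. The matches that lie wholly before a start are printed below, 5′ to 3′ on the strand of the gene, as examples from a transcription factor, a stress effector, an enzyme, a transporter and the tRNA synthetases. Capitals mark the match, which reads TTNCATCA where the core lies on the other strand. The last line shows the TGACGTCA match.
CEBPG: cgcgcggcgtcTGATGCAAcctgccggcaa
JDP2: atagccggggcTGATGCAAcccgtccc
CHAC1: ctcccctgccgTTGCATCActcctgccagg
ASNS: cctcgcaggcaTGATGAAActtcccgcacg
SLC1A5: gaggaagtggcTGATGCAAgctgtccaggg
AARS: ttttctcgcagTTGCATCAgccaagttaga
GARS: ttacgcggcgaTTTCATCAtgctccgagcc
IARS: ttttcagcgcgTTGCATCAcctcc
PPP1R15A: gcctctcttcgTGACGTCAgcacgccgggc

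In GRCh38 coordinates, the CEBPG stretch is chr19:33374060-33374089 (plus strand) and the JDP2 stretch chr14:75427995-75428021 (plus strand), and both lie in introns of longer GENCODE 29 transcripts of the same gene. The stretches of CHAC1 (chr15:40953251-40953280, plus strand), ASNS (chr7:97872458-97872487, minus strand), GARS (chr7:30594834-30594863, plus strand) and IARS (chr9:92293698-92293721, minus strand) lie in exons of transcripts that begin further upstream. The SLC1A5 stretch (chr19:46784893-46784922, minus strand) is partly exonic. The AARS stretch (chr16:70289675-70289704, minus strand) and the PPP1R15A stretch (chr19:48872352-48872381, plus strand) lie before the annotated gene. The cores of CEBPG, JDP2 and SLC1A5 are the same 8 bases, TGATGCAA, and those of CHAC1, AARS and IARS are the same bases read from the other strand. The other 6 members with a match, SLC1A4, SLC3A2, SLC7A1, SLC38A1, MARS and NARS, have it at or past the start. These matches describe sequence only, and the data hold no measurement of binding.

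Overexpression of KRT19 was not accompanied by a detectable difference in any member. Of the 38 members, 37 passed the filter on low counts, and 0 of the 37 were past an adjusted p of 0.05 (edgeR quasi-likelihood test, Benjamini-Hochberg over all 14621 genes), with the lowest adjusted p of a member at 0.906. Over all genes tested, 0.00684% were past that threshold, which is KRT19 itself and no other gene. At an unadjusted p under 0.05 there were again 0 of 37 members, against 5.41% of all genes. DESeq2 and limma-voom also gave 0 members past the adjusted threshold. At an unadjusted p under 0.05 they gave 1 and 3 of the 37 members, beside 581 and 1337 of the 14621 genes. In CPM (counts scaled to the library size), the groups were without overlap for 0 of 37 members, against 3.44% of all genes. In TPM (counts per length, scaled to a fixed sum in each library) they were so for 1 of 37, SLC7A5, against 3.09% of all genes. The members lay on both sides of 0, with 19 higher and 18 lower in KRT19 (16 and 21 with upper-quartile normalization) and a median log2 fold change (KRT19 over EV) of 0.0013, beside 0.0051 over all genes tested. Their differences ran from -0.13 (EIF2AK3) to 0.15 (ATF5). The median size of a difference, without its sign, was 0.030 for the members and 0.068 for all genes, with a median standard error (SE) of 0.057 and 0.084. In a bulk sample, a lower level in each cell and fewer cells with the transcript cannot be told apart.

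The intervals state how large a difference these libraries could have missed. All 37 of the 95% intervals included 0, and 30 of them lay within 0.25 of 0 on the log2 scale, which is a change of 1.19-fold in either direction. The intervals of 34 members lay within 0.5 (1.41-fold). Those of ASNS, SLC6A9 and VLDLR-AS1 reached past 0.5, and these 3 had 15 to 42 counts per library. For 34 of the 37 members the highest library was less than 1.5 times the lowest in CPM.

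**Figure D1:**
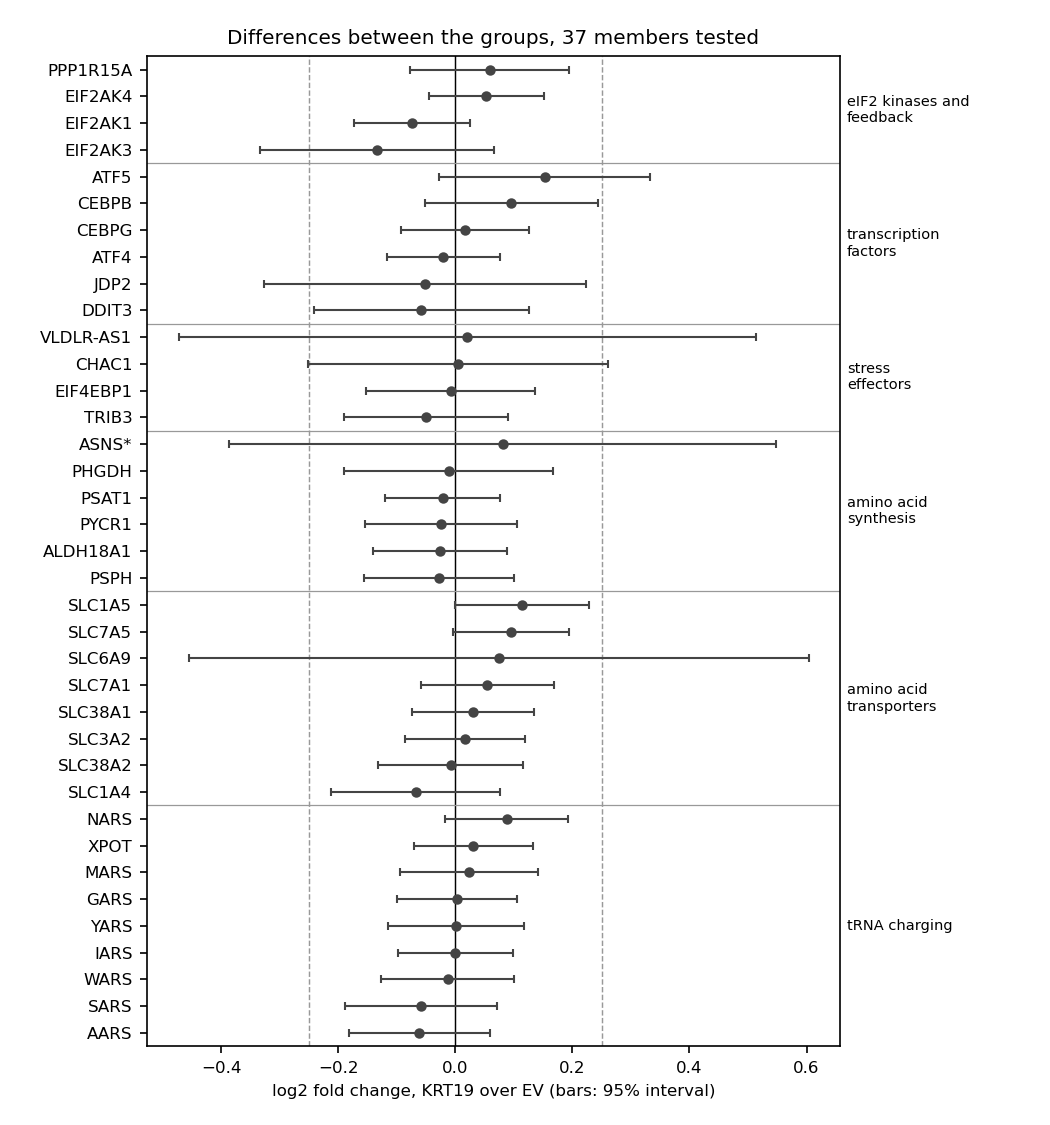
Log2 fold change of KRT19 over EV (x axis) for the 37 members tested, with 95% intervals from the edgeR fit (4 libraries a group), grouped by role; dashed lines mark 0.25 on either side of 0. Every interval crosses 0, and 30 of the 37 stay between the dashed lines; ASNS is starred because its exons are shared with another annotated gene.

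The members covered a wide range of levels. In TPM (counts divided by the length of the union of a gene's exons and scaled to the same total in every library), their means over the 8 libraries ran from 0.252 (NUPR1) to 468 (ATF4). ATF4 was above 98.1% of the genes tested, EIF4EBP1 and SLC38A2 each above 97.7%, and PSAT1 above 96.5%. All 9 genes of tRNA charging were above 86.3% or more of the genes tested. At the other end, JDP2, SLC6A9, VLDLR-AS1 and NUPR1 had 3.60, 0.985, 0.925 and 0.252 TPM. When the members were ordered by mean TPM, 17 of the 37 neighbouring pairs stood in the same order in all 8 libraries. The order was not fixed among EIF4EBP1 and SLC38A2 (same order in 6 of 8 libraries), among SARS, XPOT, MARS and EIF2AK1 (4 or 5 of 8), or among SLC1A5, ALDH18A1, SLC3A2 and CEBPG (5 of 8). TPM depends on the length used: PHGDH has 9217 bases in the union of its exons and 2585 in its principal transcript, so its level per length was 26.2 TPM with the former and 93.3 with the latter, and its rank among the members moved from 30 to 23. With the length of the principal transcript in place of the union, ATF4 stayed first, and the 8 members with the lowest levels stayed in place.

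**Figure D2:**
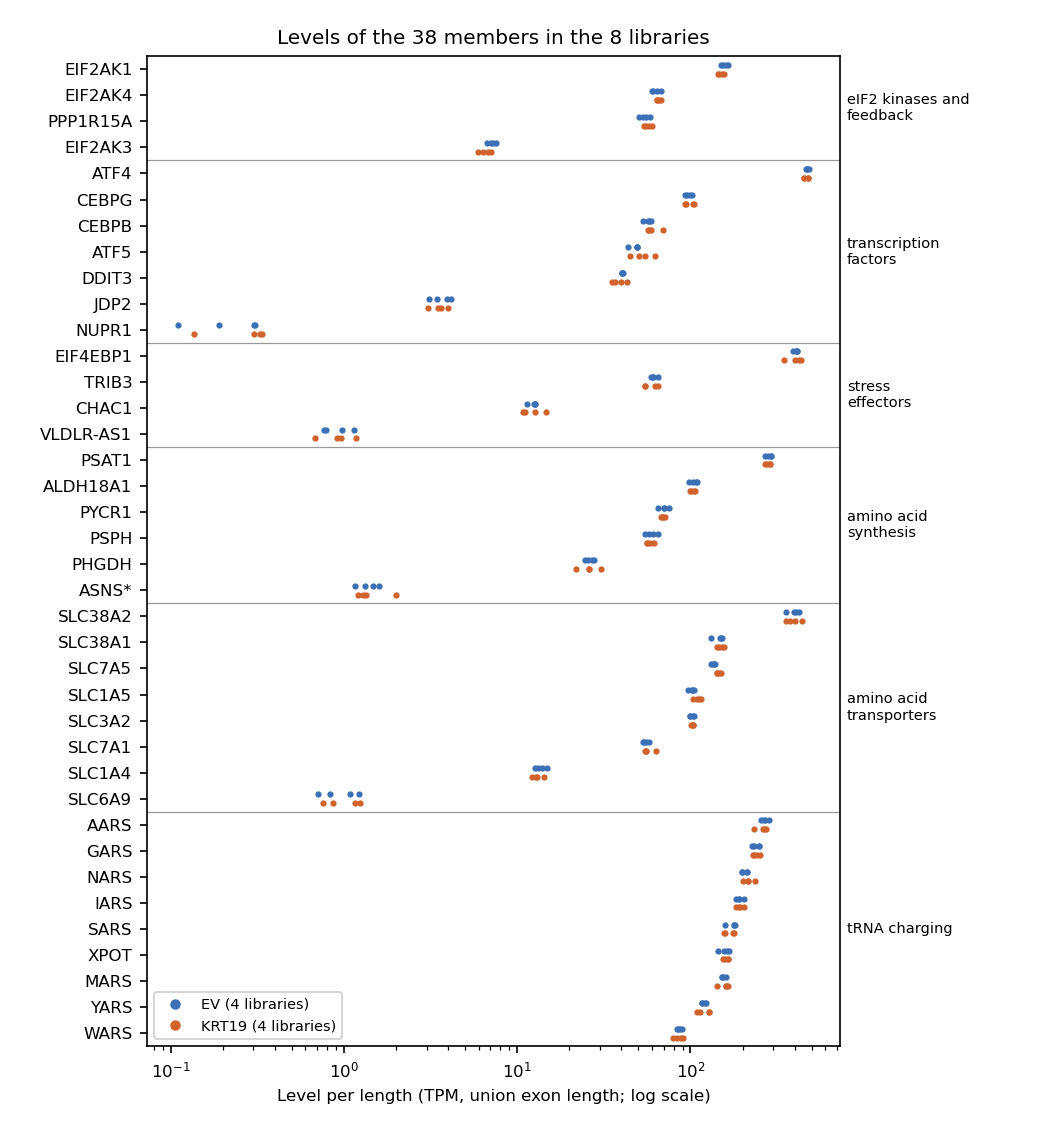
Level per length of the 38 members in each library (x axis, TPM with the union of exons as length, log scale), grouped by role; each point is 1 library, EV above and KRT19 below. The points of the groups overlap for every member but SLC7A5, whose KRT19 libraries (142 to 149 TPM) all lie above its EV libraries (131 to 138 TPM), while levels between members range from 0.252 (NUPR1) to 468 TPM (ATF4) in the mean.

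The 3 eIF2 kinases and the phosphatase subunit did not differ between the groups beyond the spread of the libraries. EIF2AK3 encodes PERK, the kinase that senses unfolded proteins in the endoplasmic reticulum. Its values were 9.98, 11.03, 10.9 and 11.4 CPM in EV and 9.12, 9.46, 10.5 and 10.4 CPM in KRT19. KRT19 replicates 1 and 2 were the lowest of the 8 and EV replicate 4 the highest, but EV replicate 1 lay below KRT19 replicates 3 and 4, so the groups overlapped. EIF2AK3 had a log2 fold change of -0.13 with an SE of 0.095 and an interval from -0.33 to 0.066 (edgeR, adjusted p = 0.911). EIF2AK1 encodes HRI, which responds to lack of haem and to mitochondrial stress, and its level was 157 ± 6.60 TPM in EV and 149 ± 5.82 in KRT19 (SD, n = 4 in each group here and below), with a log2 fold change of -0.074 (SE 0.047). EIF2AK4 encodes GCN2, which binds uncharged tRNA when amino acids run short, and had 63.3 ± 3.50 and 65.6 ± 1.68 TPM (log2 fold change 0.053, SE 0.047). PPP1R15A encodes GADD34, which brings a phosphatase to eIF2 and so reverses the response, and had 54.3 ± 3.34 and 56.6 ± 2.79 TPM (log2 fold change 0.059, SE 0.064). Among the kinases the order was the same in all 8 libraries: EIF2AK1 stood 22.5 ± 1.98 times and EIF2AK4 9.48 ± 0.990 times above EIF2AK3 in TPM (SD over 8 libraries). With the length of the principal transcript these ratios were 23.9 and 17.6.

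The transcription factors were led by ATF4 itself. Its transcript had 316, 331, 341 and 330 CPM in EV and 338, 329, 311 and 322 CPM in KRT19. All 8 values fell within a range of 1.10-fold, and each group held values above and below those of the other. ATF4 had a log2 fold change of -0.020 with an SE of 0.046 and an interval from -0.12 to 0.077, which bounds a difference in this transcript between a decrease of 7.82% and an increase of 5.47%. ATF5, a related factor whose translation is also raised by eIF2 phosphorylation, had the largest difference of the members. Its 39.7, 35.7, 41.3 and 40.5 CPM in EV stood beside 42.1, 36.2, 50.8 and 45.5 CPM in KRT19. KRT19 replicate 3 was the highest library and KRT19 replicate 2 the second lowest. For ATF5 the log2 fold change was 0.15 (SE 0.085, interval -0.027 to 0.33), and it was 0.071 without KRT19 replicate 3. Without KRT19 replicate 2 it was 0.23 (unadjusted p = 0.00950, adjusted p = 0.898 in edgeR). The exons of ATF5 overlap those of NUP62 and IL4I1 on the opposite strand over 23.7% of their bases, and whether strand was used in counting is not given in the sources used here.

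DDIT3 encodes CHOP, the factor linked to cell death under lasting stress. It had 14.3, 14.7, 14.9 and 14.9 CPM in EV and 15.9, 12.7, 14.3 and 13.6 CPM in KRT19. The EV libraries lay close together, between the highest and the lower KRT19 libraries. For DDIT3 the log2 fold change was -0.058 (SE 0.087, interval -0.24 to 0.13). Of the DDIT3 exon bases, 39.6% are shared with other genes, chiefly MARS on the opposite strand. CEBPB and CEBPG encode partners with which ATF4 can pair, and had 56.9 ± 2.53 and 97.7 ± 4.22 TPM in EV, and 60.7 ± 5.91 and 98.9 ± 5.98 TPM in KRT19. Their log2 fold changes were 0.096 (SE 0.070) and 0.017 (SE 0.052). JDP2 encodes a repressor that binds CRE and AP-1 sites, and had 3.66 ± 0.480 and 3.53 ± 0.391 TPM (log2 fold change -0.052, SE 0.13). NUPR1, a small stress-induced chromatin protein, was the 1 member that did not pass the filter: it had 7, 8, 5 and 3 counts in EV and 8, 3, 9 and 8 counts in KRT19. These counts were near the limit of 3 counts that was treated as the floor, and no fold change is given. In TPM, ATF4 stood 11.9 ± 0.766 times above DDIT3 and 9.39 ± 1.19 times above ATF5 (SD over 8 libraries). With the length of the principal transcript these ratios were 10.6 and 8.19.

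Of the 4 stress effectors, 0 passed the unadjusted threshold. TRIB3 encodes a pseudokinase that ATF4 and CHOP induce and that in turn restrains ATF4. It had 56.6, 56.3, 59.1 and 62.2 CPM in EV and 62.5, 58.9, 51.6 and 53.3 CPM in KRT19. The 2 highest libraries came from different groups, and so the groups overlapped, although KRT19 replicates 3 and 4 were the lowest. This gave a log2 fold change of -0.050 (SE 0.066, interval -0.19 to 0.090). CHAC1 encodes a glutathione-degrading enzyme induced by ATF4. It had 6.99, 7.29, 7.36 and 6.53 CPM in EV and 8.51, 7.18, 6.27 and 6.29 CPM in KRT19. KRT19 held both the highest and the lowest libraries, and the log2 fold change was 0.0047 (SE 0.12, interval -0.25 to 0.26). EIF4EBP1, a repressor of cap-dependent translation that ATF4 induces, had 404 ± 11.1 TPM in EV and 402 ± 38.9 in KRT19 (log2 fold change -0.0078, SE 0.069). By mean TPM it had rank 2 among the members with the union of exons and rank 3 with the principal transcript. The noncoding RNA VLDLR-AS1 had 19 to 30 counts per library and a log2 fold change of 0.020 with an SE of 0.23. Of its exon bases, 12.3% are shared with other annotated genes. TRIB3, CHAC1, EIF4EBP1 and PHGDH were each highest in KRT19 replicate 1 and lowest in KRT19 replicate 3, 2 libraries of the same group.

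**Figure D3:**
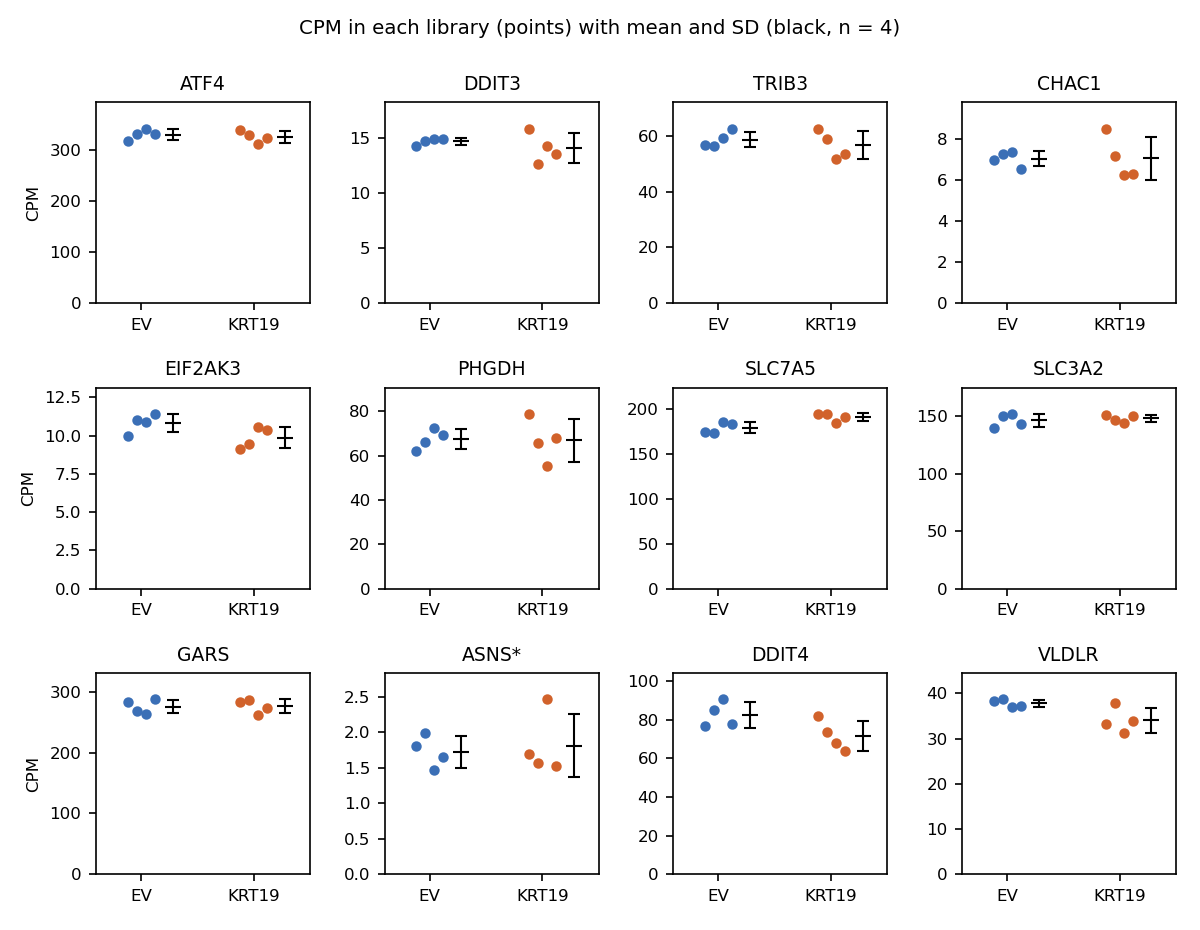
CPM in each library for 10 members and for DDIT4 and VLDLR of the wider pathway list, with the y axis from 0; coloured points are libraries and the black marks give the mean and SD of 4 libraries. The groups overlap in every panel, and the SD within KRT19 is larger than within EV in every panel but those of SLC7A5 and SLC3A2.

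The enzymes of amino acid synthesis were near even between the groups, with 5 of 6 lower in KRT19 by small amounts and a median log2 fold change of -0.023. PHGDH, PSAT1 and PSPH carry out the successive steps from a glycolytic intermediate to serine. PHGDH had 61.9, 66.1, 72.3 and 69.3 CPM in EV and 78.8, 65.6, 55.5 and 67.8 CPM in KRT19. The 4 EV libraries fell between the highest and the lowest KRT19 libraries, and the SD within EV was 4.47 CPM, beside 9.57 within KRT19. The log2 fold change was -0.012 (SE 0.084, interval -0.19 to 0.17). PSAT1 had the smallest ratio of the members between its highest and lowest libraries in CPM, 1.08. In TPM this ratio was 1.10 for PSAT1 and smaller for SLC3A2 (1.06) and ATF4 (1.07). The level of PSAT1 was 283 ± 11.4 TPM in EV and 279 ± 8.998 in KRT19, with a log2 fold change of -0.022 (SE 0.046). PSPH had 59.5 ± 4.15 and 58.3 ± 2.72 TPM (log2 fold change -0.028, SE 0.061). In TPM, PSAT1 stood 10.9 ± 1.30 times above PHGDH, and 3.04 times with the length of the principal transcript. PSPH stood 2.27 ± 0.255 times above PHGDH with the union of exons but was below it, at 0.807 times, with the principal transcript, so no order of these 2 enzymes can be read.

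ALDH18A1 and PYCR1 act in proline synthesis. ALDH18A1 had 105 ± 5.05 TPM in EV and 103 ± 3.62 in KRT19 (log2 fold change -0.026, SE 0.054). PYCR1 had 70.2 ± 3.98 and 69.1 ± 1.53 TPM (log2 fold change -0.025, SE 0.061), and 29.7% of its exon bases are shared with other genes. ASNS, which makes asparagine and is a classical ATF4 target, had only 27, 33, 24 and 28 counts in EV and 28, 22, 42 and 23 counts in KRT19. These values cannot be read as the level of ASNS. Its principal transcript lies to 84.3% inside exons of AC079781.5, an annotated gene on the same strand that runs through ASNS, and 73.2% of the 75-base words of the ASNS transcripts also occur in that gene. The counts of AC079781.5 were as low, at 18, 22, 13 and 21 in EV and 14, 16, 34 and 13 in KRT19. How reads that match both genes were counted is not given in the sources used here, and the part of this sharing in the low counts was not tested. KRT19 replicate 3 was the highest library for both genes. The log2 fold change of ASNS was 0.081 (SE 0.22, interval -0.39 to 0.55), and it was -0.11 without KRT19 replicate 3.

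The amino acid transporters held the members nearest to the threshold. Of the 8, 6 were higher in KRT19 and the median log2 fold change was 0.043, but 0 passed the unadjusted threshold. With 1 library left out at a time, this median ranged from 0.020 (without KRT19 replicate 3) to 0.053. SLC7A5 (LAT1) carries large neutral amino acids such as leucine across the membrane as a dimer with SLC3A2. It had 174, 173, 186 and 183 CPM in EV and 194, 194, 185 and 191 CPM in KRT19. The 3 highest libraries were KRT19 libraries, and KRT19 replicate 3 fell below EV replicate 3, so the groups overlapped by that library in CPM. In TPM, SLC7A5 had 135, 131, 138 and 137 in EV and 145, 149, 142 and 143 in KRT19, and the groups did not overlap. The log2 fold change was 0.095 (SE 0.047, interval -0.0034 to 0.19), with an unadjusted p of 0.0575 and an adjusted p of 0.906 in edgeR. SLC3A2, its partner chain, had 140, 151, 152 and 143 CPM in EV and 151, 146, 144 and 151 CPM in KRT19. Its groups overlapped throughout, with a log2 fold change of 0.017 (SE 0.049, interval -0.086 to 0.12).

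SLC1A5 (ASCT2), which exchanges glutamine and other small neutral amino acids, had the lowest p of the members. It had 92.7, 97.01, 90.8 and 95.4 CPM in EV and 107, 103, 94.3 and 102 CPM in KRT19. Here too the 3 highest libraries were KRT19 libraries, and KRT19 replicate 3 lay among the EV libraries. For SLC1A5 the log2 fold change was 0.11 (SE 0.054, interval -0.0011 to 0.23), with an unadjusted p of 0.0520 and an adjusted p of 0.906 in edgeR. Without KRT19 replicate 3 the log2 fold change of SLC1A5 was 0.15 (unadjusted p = 0.00765, adjusted p = 0.904) and that of SLC7A5 0.11 (unadjusted p = 0.0219, adjusted p = 0.912) in edgeR. Of the SLC1A5 exon bases, 23.8% are shared with genes on the opposite strand. SLC1A4, a related exchanger of alanine, serine and cysteine, had the opposite sign, with 13.7 ± 0.899 TPM in EV and 13.0 ± 0.868 in KRT19 (log2 fold change -0.068, SE 0.069). In TPM, SLC1A5 stood 7.94 ± 0.713 times above SLC1A4, and 6.03 times with the length of the principal transcript.

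SLC38A2 (SNAT2), which takes up small neutral amino acids with sodium, was the most abundant transporter, with 396 ± 28.3 TPM in EV and 393 ± 36.9 in KRT19 (log2 fold change -0.0082, SE 0.059). Its relative SLC38A1 had 146 ± 9.31 and 149 ± 6.76 TPM (log2 fold change 0.030, SE 0.049). The ratio of SLC38A2 to SLC38A1 was steady at 2.67 ± 0.100 over the 8 libraries, and it was 2.91 with the length of the principal transcript. SLC7A1, a carrier of cationic amino acids such as arginine, had 55.0 ± 2.03 and 57.2 ± 3.88 TPM (log2 fold change 0.055, SE 0.054), and SLC7A5 stood 2.50 ± 0.102 times above it in TPM. SLC3A2 stood below SLC7A5 with the union of exons (0.731 ± 0.0320 times) and above it with the principal transcript (1.67 times), so no order of these dimer partners can be read. SLC6A9 (GlyT1), a glycine transporter, had 15 to 30 counts per library and a log2 fold change of 0.074 with an SE of 0.25.

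The 8 tRNA synthetases and XPOT, the exporter of tRNA from the nucleus, lay close to even between the groups. Of these 9 genes, 5 were higher and 4 lower in KRT19, with a median log2 fold change of 0.0013 (-0.010 with upper-quartile normalization) and a range from -0.062 (AARS) to 0.088 (NARS). A synthetase joins an amino acid to its tRNA, and the first letter of its symbol is the code letter of that amino acid. GARS, the glycine enzyme, had 283, 269, 264 and 288 CPM in EV and 284, 288, 262 and 273 CPM in KRT19. Each group held high and low libraries, and the log2 fold change was 0.0025 (SE 0.049, interval -0.10 to 0.11). AARS, the alanine enzyme, had 269 ± 11.1 TPM in EV and 258 ± 17.7 in KRT19 (log2 fold change -0.062, SE 0.057). NARS, the asparagine enzyme, had 204 ± 8.01 and 217 ± 13.7 TPM (log2 fold change 0.088, SE 0.050, unadjusted p = 0.0975 in edgeR). IARS (isoleucine) had 192 ± 8.33 and 192 ± 8.47 TPM, with a log2 fold change of -0.00012 (SE 0.047). MARS (methionine) had 155 ± 4.36 and 157 ± 10.2 TPM, with a log2 fold change of 0.024 (SE 0.056). SARS (serine) had 175 ± 10.5 and 168 ± 11.6 TPM, with a log2 fold change of -0.058 (SE 0.061). WARS (tryptophan) had 86.1 ± 2.63 and 85.4 ± 5.01 TPM, with a log2 fold change of -0.013 (SE 0.054). YARS (tyrosine) had 120 ± 3.46 and 120 ± 9.11 TPM, with a log2 fold change of 0.0013 (SE 0.055). XPOT had 157 ± 9.98 and 160 ± 5.66 TPM, with a log2 fold change of 0.030 (SE 0.048).

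The members' values also varied from library to library within a group. KRT19 replicate 3 was the lowest library for 13 of the 37 members and the highest for 7, and KRT19 replicate 1 was the highest for 9. Over all genes tested, KRT19 replicate 3 was the lowest library for 21.6% and the highest for 23.2%, against 35.1% and 18.9% of the members. The mean log2 CPM of the 9 genes of tRNA charging was 8.03, 8.05, 8.05 and 8.07 in EV and 8.10, 8.09, 7.97 and 8.05 in KRT19. KRT19 replicate 3 was the lowest of the 8 for this mean and replicates 1 and 2 of the same group were the highest, so the group means were 8.05 and 8.05. For the 4 stress effectors, KRT19 replicate 3 was again the lowest, at 3.95, with the other 7 libraries between 4.04 and 4.13. NARS, CEBPB, ATF5 and SLC38A2 went the other way and were highest in KRT19 replicate 3. What set this library apart was not tested.

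**Figure D4:**
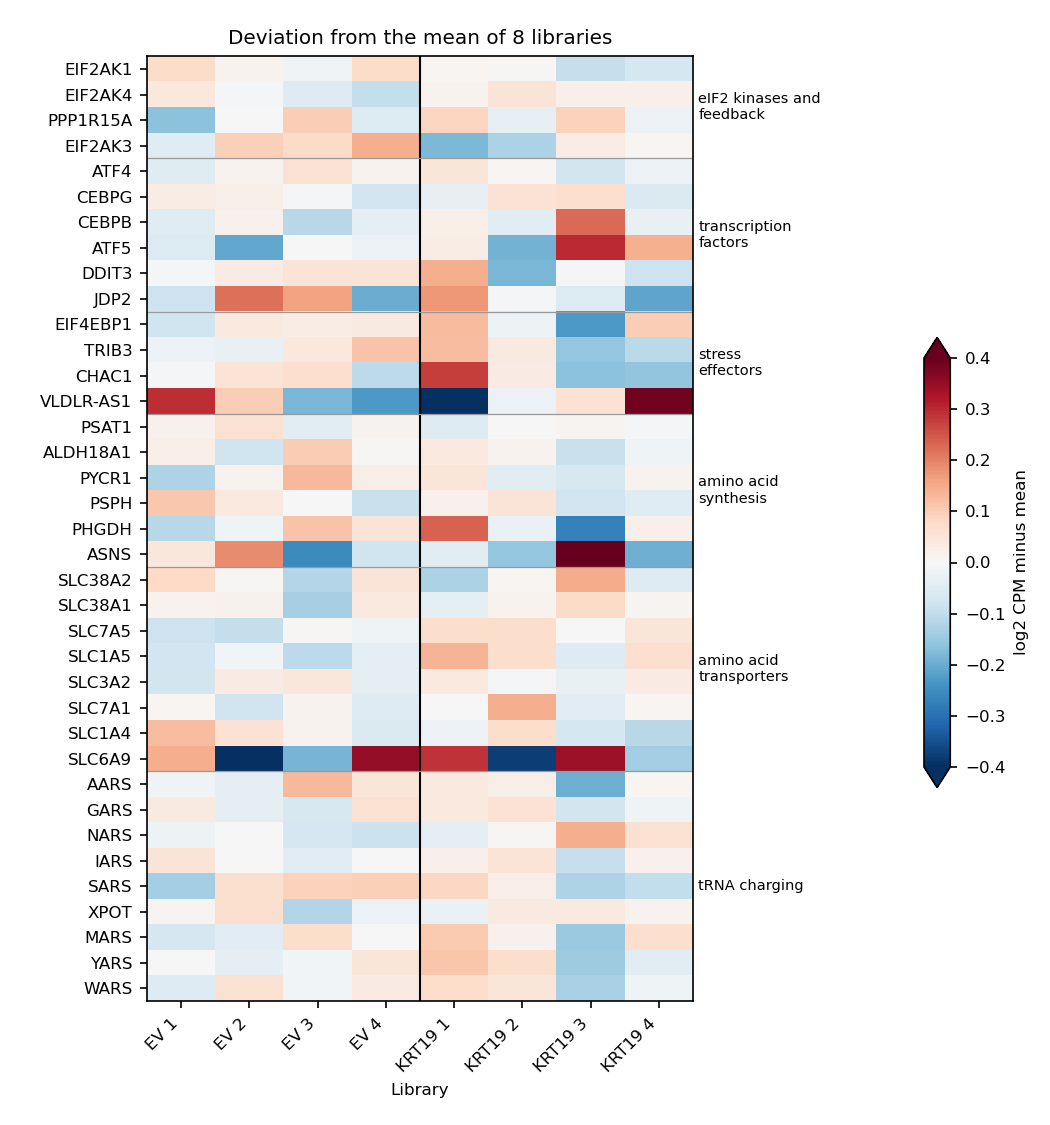
Log2 CPM of each of the 37 members tested (rows, by role) in each library (columns) minus the mean of the 8 libraries; red is above and blue below the mean, and colours saturate at 0.4 on the log2 scale. KRT19 replicate 3 is the lowest library in 13 rows, 6 of the 8 synthetases among them, and no row splits at the line between the groups.

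Other genes of the pathway were taken from a list of 65 genes chosen by their known roles. Of the 64 that were tested, 38 were higher and 26 lower in KRT19, and 0 were past the adjusted threshold. At an unadjusted p under 0.05 there were 2 of the 64 (DDIT4 and VLDLR), against 5.41% of all genes tested. Both were lower, and 2.56% of all genes tested were lower at this p. FGF21 did not pass the filter on low counts. DDIT4 encodes REDD1, an inhibitor of mTORC1 that ATF4 and other stress pathways induce. It had 76.6, 85.0, 90.5 and 77.8 CPM in EV and 81.7, 73.7, 67.9 and 63.7 CPM in KRT19. The 3 lowest libraries were KRT19 libraries, and KRT19 replicate 1 lay among the EV libraries. DDIT4 had a log2 fold change of -0.20 (SE 0.075, interval -0.36 to -0.042), with an unadjusted p of 0.0162 and an adjusted p of 0.906 in edgeR. VLDLR encodes a lipoprotein receptor and had 38.3, 38.7, 36.9 and 37.2 CPM in EV and 33.1, 37.8, 31.2 and 33.9 CPM in KRT19. Again 3 KRT19 libraries were the lowest, and KRT19 replicate 2 lay among the EV libraries. VLDLR had a log2 fold change of -0.15 (SE 0.066, interval -0.29 to -0.014), with an unadjusted p of 0.0325 and an adjusted p of 0.906 in edgeR. Without KRT19 replicate 4 the number of listed genes at an unadjusted p under 0.05 was 0, and without KRT19 replicate 3 it was 5.

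By group of this list, 13 of the 19 other ATF4 target genes tested were lower, with a median log2 fold change of -0.049 and a range from -0.35 (ALDH1L2, a mitochondrial folate enzyme) to 0.15 (SLC7A11, the cystine importer). Neither of these 2 genes passed the unadjusted threshold. ATF3, a stress-induced repressor (log2 fold change -0.049, SE 0.10), SESN2, a leucine sensor (-0.11, SE 0.085), and GDF15, a secreted stress hormone (-0.17, SE 0.12), were likewise within the spread of the libraries. The eIF2 and eIF2B machinery had 11 of 13 genes higher with a median of 0.037, the other cytosolic synthetases and their scaffold proteins 10 of 15 higher with a median of 0.043, and the mitochondrial synthetases 11 of 17 higher with a median of 0.036. In these 3 groups 0 genes passed the unadjusted threshold. Over all genes tested, 52.2% were higher.

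**Figure D5:**
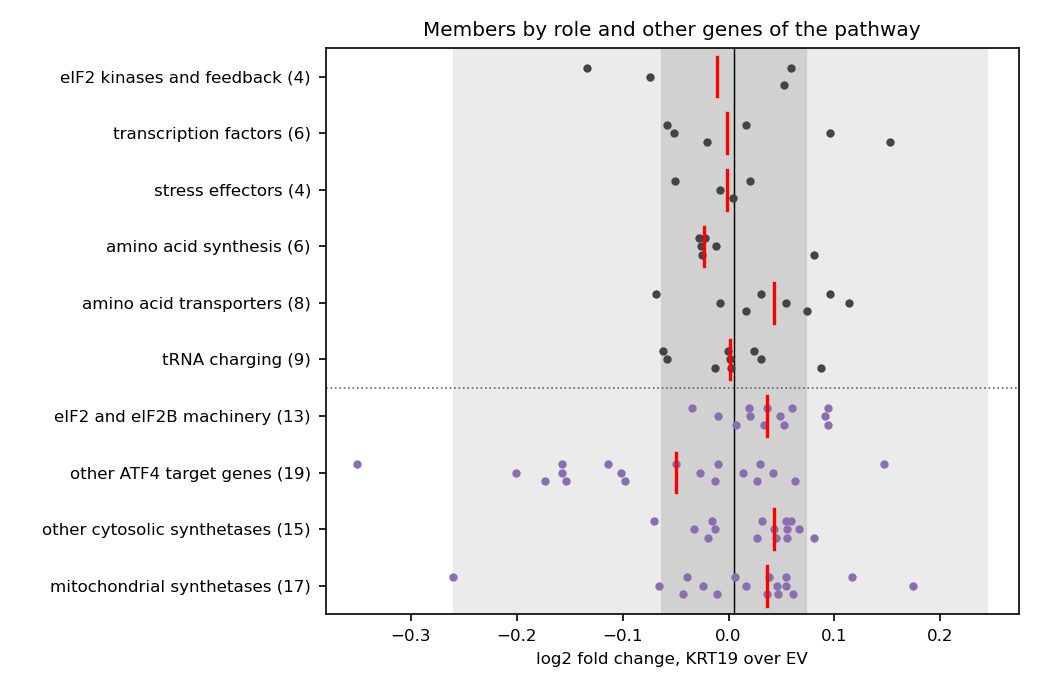
Log2 fold change of KRT19 over EV (x axis) for the members by role (grey points, top) and the other genes of the pathway (violet points, bottom), with the number of genes tested in brackets and red bars for medians; the vertical line is the median of all 14621 genes, and the dark and light bands hold the 25th to 75th and the 5th to 95th percentiles of single genes. The 10 medians run from -0.049 to 0.043.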

How the data were processed

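The table deposited by the authors holds raw counts of reads for each gene in 8 libraries, with GRCh38 coordinates and a gene length that equals the union of GENCODE 29 exons. The submitters' processing notes name Bowtie 0.12.2, featureCounts 1.5.0-p3, DESeq2 and hg38 without saying what each did. Strand, and reads that match several genes, are not described in the sources used here, so genes with shared or overlapping exons carry uncertain counts. Groups and replicate numbers came from the sample titles. The members and all lists were chosen with earlier results of these data known.

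In edgeR 4.0.16 (R 4.3.3), filterByExpr kept 14621 genes, TMM scaled the libraries, and glmQLFit with glmQLFTest compared KRT19 with EV (two-sided, Benjamini-Hochberg, threshold 0.05), with the group as the only term. Each SE was derived from the log2 fold change and the root of its quasi-likelihood F. TPM used the deposited length, and mean log2 CPM a prior count of 2. Library totals of 14073065 to 17054364 counts give a floor of 3 counts, or 0.176 to 0.213 CPM, for counting error only. No 2 replicates agreed within sampling noise (chi-square per degree of freedom 2.78 to 13.6). Alternatives used DESeq2 1.42.0 and limma 3.58.1. Scripts were tested on simulated data. Exons, transcripts and shared 75-base words came from GENCODE 29, and promoters from RefSeq. Named genes were all 38 members, with values in each library for ATF4, DDIT3, TRIB3, CHAC1, EIF2AK3, ASNS, PHGDH, SLC7A5, SLC3A2, GARS, NUPR1 and the listed genes at an unadjusted p under 0.05; those of SLC1A5 and ATF5, and the names of FGF21, ALDH1L2, SLC7A11, ATF3, SESN2 and GDF15, were added after their values were seen. Of the cell type markers checked, 2 are not reported here.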

Additional observations from a re-analysis of the deposited data

Results flagged for a closer look

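In 4 of the 86 sets of 4 replicates that were checked (37 members and 6 role means in each group), 1 library lay far from the other 3 by Dixon's ratio, where chance alone gives about 4.3. EIF4EBP1 was lowest in EV replicate 1, at a log2 CPM of 6.83 with the other EV libraries between 6.94 and 6.95 (ratio 0.921). EV replicate 1 also held the lowest SARS value, 7.38, with the others from 7.58 to 7.61 (ratio 0.862). SLC38A1 was lowest in EV replicate 3, at 8.55 against 8.70 to 8.72 (ratio 0.857). AARS was lowest in KRT19 replicate 3, at 8.17 against 8.37 to 8.41 (ratio 0.861).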

How the results depend on the processing

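No member passed the adjusted threshold under any of the 7 other settings or when any 1 of the 8 libraries was left out, and the lowest adjusted p of a member was then 0.456. The count of members at an unadjusted p under 0.05, 0 in edgeR with TMM, was 1 with the DESeq2 Wald test (SLC7A5), 3 with limma-voom and quality weights (SLC1A5, SLC7A5 and EIF2AK1), 1 with the looser filter (ATF5), 1 with the stricter filter (SLC1A5), and 0 to 2 when a library was left out, 2 without KRT19 replicate 3 (SLC1A5 and SLC7A5) and 1 each without KRT19 replicate 2 (ATF5), KRT19 replicate 1 (NARS) and EV replicate 3 (SLC7A5). The count for the 65 other genes of the pathway, 2, was 6 with limma-voom, and 0 (without KRT19 replicate 4) to 5 (without KRT19 replicate 3) when a library was left out; it was 1 without EV replicate 4. The median log2 fold change of the stress effectors ranged from -0.078 (without KRT19 replicate 1) to 0.035, and that of the synthesis enzymes from -0.041 to 0.0068 (without EV replicate 3). The looser filter kept at least 1 count over all libraries (30250 genes), and the stricter one at least 5 CPM in 4 libraries (10853 genes). Over all genes, 1 was past the adjusted threshold in edgeR with TMM, 5 with the Wald test, 8 with limma-voom and 71 with the looser filter, and the 791 at an unadjusted p under 0.05 became 1337 with limma-voom, 1559 with the looser filter and 451 with the replicate block. With 1 library left out, the first count was 5 without KRT19 replicate 3, 3 without EV replicate 1 and 1 otherwise, and the second was 1228 without KRT19 replicate 1 and 620 to 795 otherwise. Upper-quartile normalization moved the share of members that were higher from 51.4% to 43.2%.

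Signs changed in 17 of 256 values under other settings and in 44 of 296 when a library was left out; 16 members kept their sign throughout. With upper-quartile normalization the log2 fold change was -0.0072 for CHAC1, -0.0093 for GARS and -0.010 for YARS. With limma-voom it was -0.0029 for CHAC1, 0.035 for EIF4EBP1, 0.013 for PHGDH, -0.077 for ASNS, -0.11 for SLC6A9, -0.0046 for GARS, 0.017 for IARS and -0.0020 for YARS. For IARS it was 0.00041 with DESeq2 size factors and 0.00036 with the Wald test. For YARS it was -0.00018 with the looser and -0.00030 with the stricter filter. With 1 library left out at a time, the members whose sign changed at least once ranged as follows: ATF4 (-0.040 to 0.00051), CEBPG (-0.0055 to 0.039), JDP2 (-0.12 to 0.015), CHAC1 (-0.10 to 0.062), EIF4EBP1 (-0.054 to 0.063), VLDLR-AS1 (-0.12 to 0.14), PHGDH (-0.10 to 0.070), PSPH (-0.062 to 0.0037), ASNS (-0.11 to 0.16), ALDH18A1 (-0.058 to 0.0046), PYCR1 (-0.067 to 0.016), SLC3A2 (-0.0044 to 0.035), SLC38A1 (-0.0072 to 0.049), SLC38A2 (-0.062 to 0.031), SLC6A9 (-0.048 to 0.22), XPOT (-0.0021 to 0.057), GARS (-0.017 to 0.027), IARS (-0.019 to 0.030), MARS (-0.0081 to 0.074), WARS (-0.039 to 0.026), YARS (-0.037 to 0.047). The cause of these changes was not tested.

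Replicate numbers did not pair the libraries: the deviations of same-numbered libraries had correlations of -0.11, -0.024, -0.16 and 0.057. With the replicate number as a block, 0 members were at an unadjusted p under 0.05, the count for the other genes of the pathway was 1 (DDIT4), and the log2 fold changes of CHAC1 and YARS were -0.0036 and -0.0015.

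With 4 libraries a group, the intervals of 30 members allow differences of up to 1.19-fold, and those of 3, with low counts, of over 1.41-fold (ASNS, SLC6A9 and VLDLR-AS1). Reads shared between overlapping genes could not be followed in a table of counts. Ratios of levels between genes depend on the length used; the length of the principal transcript was added after seeing the data, and it changed the order in the ratios of PSPH to PHGDH and of SLC3A2 to SLC7A5.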
